A study of Homo sapiens with 12 samples.

Results

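The genes described here are the STAT5 branch of cytokine signalling and its feedback loop: the transcription factors STAT5A and STAT5B, the kinase JAK2 that activates them, the PIM1, PIM2 and PIM3 kinases, and the inhibitors CISH, SOCS1, SOCS2 and SOCS3. They were taken by symbol from the gene count tables, and all 10 were found among the 60648 genes listed. All 10 also passed the filter on low counts in each fit described below, so none is missing from the comparisons.

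The study measured polyadenylated RNA in 2 human acute myeloid leukaemia cell lines, MOLM13 and OCIAML5, after lentiviral short hairpins had lowered either PSPC1, a paraspeckle protein that binds RNA, or PU.1, the myeloid transcription factor encoded by SPI1. The 6 groups, each of 2 libraries, were MOLM13 with a PSPC1 hairpin, MOLM13 with a control hairpin, OCIAML5 with a PSPC1 hairpin, OCIAML5 with a control hairpin from the same experiment, OCIAML5 with a PU.1 hairpin, and OCIAML5 with a control hairpin from the PU.1 experiment. Every group, controls included, had been infected with lentivirus and either kept under puromycin or sorted for GFP, and the labels describe no clones. MOLM13 grew in RPMI medium with 10% serum and no added cytokine is named for it, while OCIAML5 grew in alpha-MEM with 20% serum and 10 ng/mL human GM-CSF. The labels name a single hairpin per target and give neither the time after infection nor whether paired libraries are separate cultures. The p-values therefore measure only how far such libraries scatter, and that scatter may be technical.

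Library totals ran between 15372383 and 39716519 counts. Levels are in CPM, counts scaled to a common library depth, with edgeR's TMM factors over all 12 libraries. PSPC1 stood at 27.7 and 28.6 CPM in PSPC1-knockdown MOLM13, against 133 and 137 CPM in MOLM13 controls, and at 18.8 and 19.2 CPM in PSPC1-knockdown OCIAML5, against 100 and 100 CPM in its controls. SPI1 stood at 46.4 and 45.2 CPM in PU.1-knockdown OCIAML5, against 220 and 198 CPM in its controls. Both targets therefore moved as labelled, and PSPC1 itself was also lower after PU.1 knockdown, at 58.4 and 56.9 CPM, against 102 and 109 CPM in the controls of that experiment. Myeloid markers (CD33, MPO, CD68, CSF1R, CSF3R, CEBPA, SPI1 and LYZ) summed to between 359 and 1260 CPM, with CD68 at 0 or near 0 in every library. The 6 erythroid markers summed to at most 0.654 CPM, and the B cell gene MS4A1 and the platelet genes PF4 and GP9 were at 0 in all 12 libraries. Other members of those lists were expressed in OCIAML5. The B lineage gene PAX5 lay between 11.7 and 24.2 CPM in the PSPC1-experiment libraries, and the megakaryocyte gene ITGA2B between 7.01 and 14.2 CPM in all OCIAML5 libraries.

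Cytokine receptors such as those for GM-CSF, IL-3 and erythropoietin have no kinase of their own and carry JAK2. When ligand binds, JAK2 phosphorylates the receptor and then STAT5A and STAT5B, which pair, enter the nucleus and bind the sequence TTCNNNGAA near their target genes. Among those targets are PIM1, a serine/threonine kinase that promotes survival and growth, and CISH, which encodes an SH2 protein that docks on the activated receptor and damps the signal. The SOCS proteins close similar loops: SOCS1 and SOCS3 inhibit JAK kinases directly, and SOCS2 is best known for restraining growth hormone signalling. In myeloid leukaemia this branch is often switched on by activated receptor kinases such as FLT3, which is mutated in MOLM13.

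Promoter windows are shown for CISH and PIM1 because they were lower after all 3 knockdowns. A window of BCL6, among the other STAT5 target genes described further on, is shown because it holds as many STAT5 motifs as the CISH window. Each runs from 250 bases before to 50 bases after a RefSeq gene start (GRCh38.p14), is written 5′ to 3′ on the gene's strand, and has TTCNNNGAA in capitals. The CISH window is chr3:50611725-50612024 on the minus strand, the PIM1 window is chr6:37169902-37170201 on the plus strand, and the BCL6 window, chosen after its motifs were seen, is chr3:187745419-187745718 on the minus strand.
CISH: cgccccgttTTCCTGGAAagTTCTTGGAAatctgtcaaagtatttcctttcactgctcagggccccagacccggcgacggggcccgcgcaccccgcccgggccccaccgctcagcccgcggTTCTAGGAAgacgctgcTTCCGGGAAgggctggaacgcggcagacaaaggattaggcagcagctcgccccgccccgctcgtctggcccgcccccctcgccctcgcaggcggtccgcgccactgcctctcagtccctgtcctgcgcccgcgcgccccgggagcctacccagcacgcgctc
PIM1: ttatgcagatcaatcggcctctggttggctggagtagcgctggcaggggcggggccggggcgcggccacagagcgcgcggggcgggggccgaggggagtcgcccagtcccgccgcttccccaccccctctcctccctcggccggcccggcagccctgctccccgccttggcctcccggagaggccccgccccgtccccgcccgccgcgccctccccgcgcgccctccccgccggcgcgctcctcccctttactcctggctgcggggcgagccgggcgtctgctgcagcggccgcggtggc
BCL6: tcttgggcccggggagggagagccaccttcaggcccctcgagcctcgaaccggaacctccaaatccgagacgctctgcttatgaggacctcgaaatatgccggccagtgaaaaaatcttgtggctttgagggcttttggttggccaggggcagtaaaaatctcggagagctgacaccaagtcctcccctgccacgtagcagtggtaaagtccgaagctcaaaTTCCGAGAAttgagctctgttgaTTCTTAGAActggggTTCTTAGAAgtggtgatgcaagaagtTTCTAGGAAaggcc

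The CISH window held 4 matches, TTCCTGGAA, TTCTTGGAA, TTCTAGGAA and TTCCGGGAA, whose first bases lie at positions -241, -230, -129 and -112 from the gene start. They form an upstream and a downstream pair. TTCNNNGAA reads the same on both strands as a pattern, so one search covers both. The other 14 windows of the 9 genes with an entry held no match, PIM1 included, and this says only that these letters are absent from those windows. SOCS2 had no entry. Across 35116 windows of the same length, 2689 (7.66%) held at least 1 match, 160 (0.456%) held 2 or more, and 7 windows of 6 genes held 4 or more. BCL6, a transcriptional repressor that STAT5 is known to regulate, was among those 6, with matches starting at -28, -5, 11 and 37. A further BCL6 window, at another RefSeq start (chr3:187736452-187736751, minus strand), held no match.

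In MOLM13, PSPC1 knockdown lowered the PIM1 kinase and the feedback inhibitors and raised JAK2. PIM1 fell 6.31-fold, SOCS3 4.92-fold, SOCS1 3.41-fold and CISH 2.96-fold, while JAK2 rose 2.35-fold. In all, 7 of the 10 genes were lower, 2 were higher and PIM2 was not called, where called means an adjusted p under 0.05 in edgeR's quasi-likelihood test with Benjamini-Hochberg adjustment. Across all 16457 genes tested, 57.0% were called in this comparison, 27.6% higher and 29.5% lower, so a call by itself is common here. The median log2 change was -0.48 over the 10 genes and 0.01 over all genes tested. In bulk RNA, fewer expressing cells and less RNA per cell cannot be told apart.

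PIM1 had 10.1 and 7.98 CPM in PSPC1-knockdown MOLM13, against 55.2 and 57.4 CPM in control MOLM13. Both knockdown libraries lay far below both controls, and the log2 change was -2.66 (SE 0.089; adjusted p = 2.9e-30, edgeR). CISH, on chromosome 3, had 16.2 and 17.5 CPM in knockdown cells, against 52.7 and 46.3 CPM in controls. The groups were far apart again, with a log2 change of -1.57 (SE 0.091; adjusted p = 1.2e-20, edgeR). CISH has 218 exon bases, 4.26% of its total, over exons of MAPKAPK3 on the opposite strand, and whether reads were counted by strand is not stated.

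The JAK inhibitors SOCS1 and SOCS3 were scarce in every library, and their changes are less precise. SOCS3 had 1.08 and 1.51 CPM in PSPC1-knockdown MOLM13, from 16 and 25 counts, against 6.20 and 6.55 CPM in controls, from 133 and 108 counts. Its log2 change was -2.30 with a 95% interval of -3.01 to -1.59 (adjusted p = 1.8e-07, edgeR). SOCS1 had 2.29 and 2.24 CPM in knockdown cells, against 7.37 and 8.00 CPM in controls. Here too both knockdown libraries lay below both controls, and the log2 change was -1.77 (SE 0.289; adjusted p = 6.6e-07, edgeR). SOCS2, the highest of the 3 SOCS genes per kb of exon in this line, had 54.3 and 55.0 CPM in knockdown cells, against 79.0 and 80.7 CPM in controls. Its fall was smaller, at -0.56 on the log2 scale (SE 0.075; adjusted p = 8.8e-09, edgeR).

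JAK2 went the other way. It had 87.4 and 93.1 CPM in PSPC1-knockdown MOLM13, against 38.6 and 37.5 CPM in control MOLM13, a log2 change of 1.23 (SE 0.075; adjusted p = 7e-20, edgeR). The STAT5 genes, neighbours on chromosome 17, moved little, and in opposite directions. STAT5B had 55.3 and 55.7 CPM in knockdown cells, against 64.3 and 65.5 CPM in controls (log2 change -0.24, SE 0.067; adjusted p = 0.0022, edgeR). STAT5A had 80.1 and 85.3 CPM in knockdown cells, against 72.2 and 70.9 CPM in controls (log2 change 0.20, SE 0.074; adjusted p = 0.022, edgeR). The STAT5A call was lost without knockdown replicate 2 (adjusted p = 0.21), control replicate 1 (0.083) or control replicate 2 (0.11), and without the low-count filter (0.054). STAT5A shares 8.61% of its 50-base words with STAT5B, so a part of the reads of one could be assigned to the other or dropped.

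The PIM kinases split. Beside the large fall of PIM1, PIM3 had 39.5 and 43.8 CPM in PSPC1-knockdown MOLM13, against 55.5 and 53.9 CPM in controls, a log2 change of -0.41 (SE 0.079; adjusted p = 1.9e-05, edgeR). PIM2 had 28.2 and 31.9 CPM in knockdown cells, against 24.8 and 27.6 CPM in controls, a log2 difference of 0.19 that was not called (95% interval -0.02 to 0.39; adjusted p = 0.11, edgeR). It was called when libraries were scaled by their totals alone (0.24, adjusted p = 0.044). In these same MOLM13 libraries the myeloid granule gene MPO stood at 3.37 and 3.20 CPM after knockdown, against 38.5 and 35.9 CPM in controls. The whole myeloid list summed to 1240 to 1260 CPM after knockdown, against 1100 to 1120 CPM in controls. LYZ, SPI1 and CSF3R were called higher, MPO and CEBPA lower, and CD33 and CSF1R were not called. The T and NK cell list, mostly NKG7, summed to 10.8 to 11.5 CPM after knockdown, against 22.3 to 24.2 CPM. Their part in the results was not tested.

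**Figure D1:**
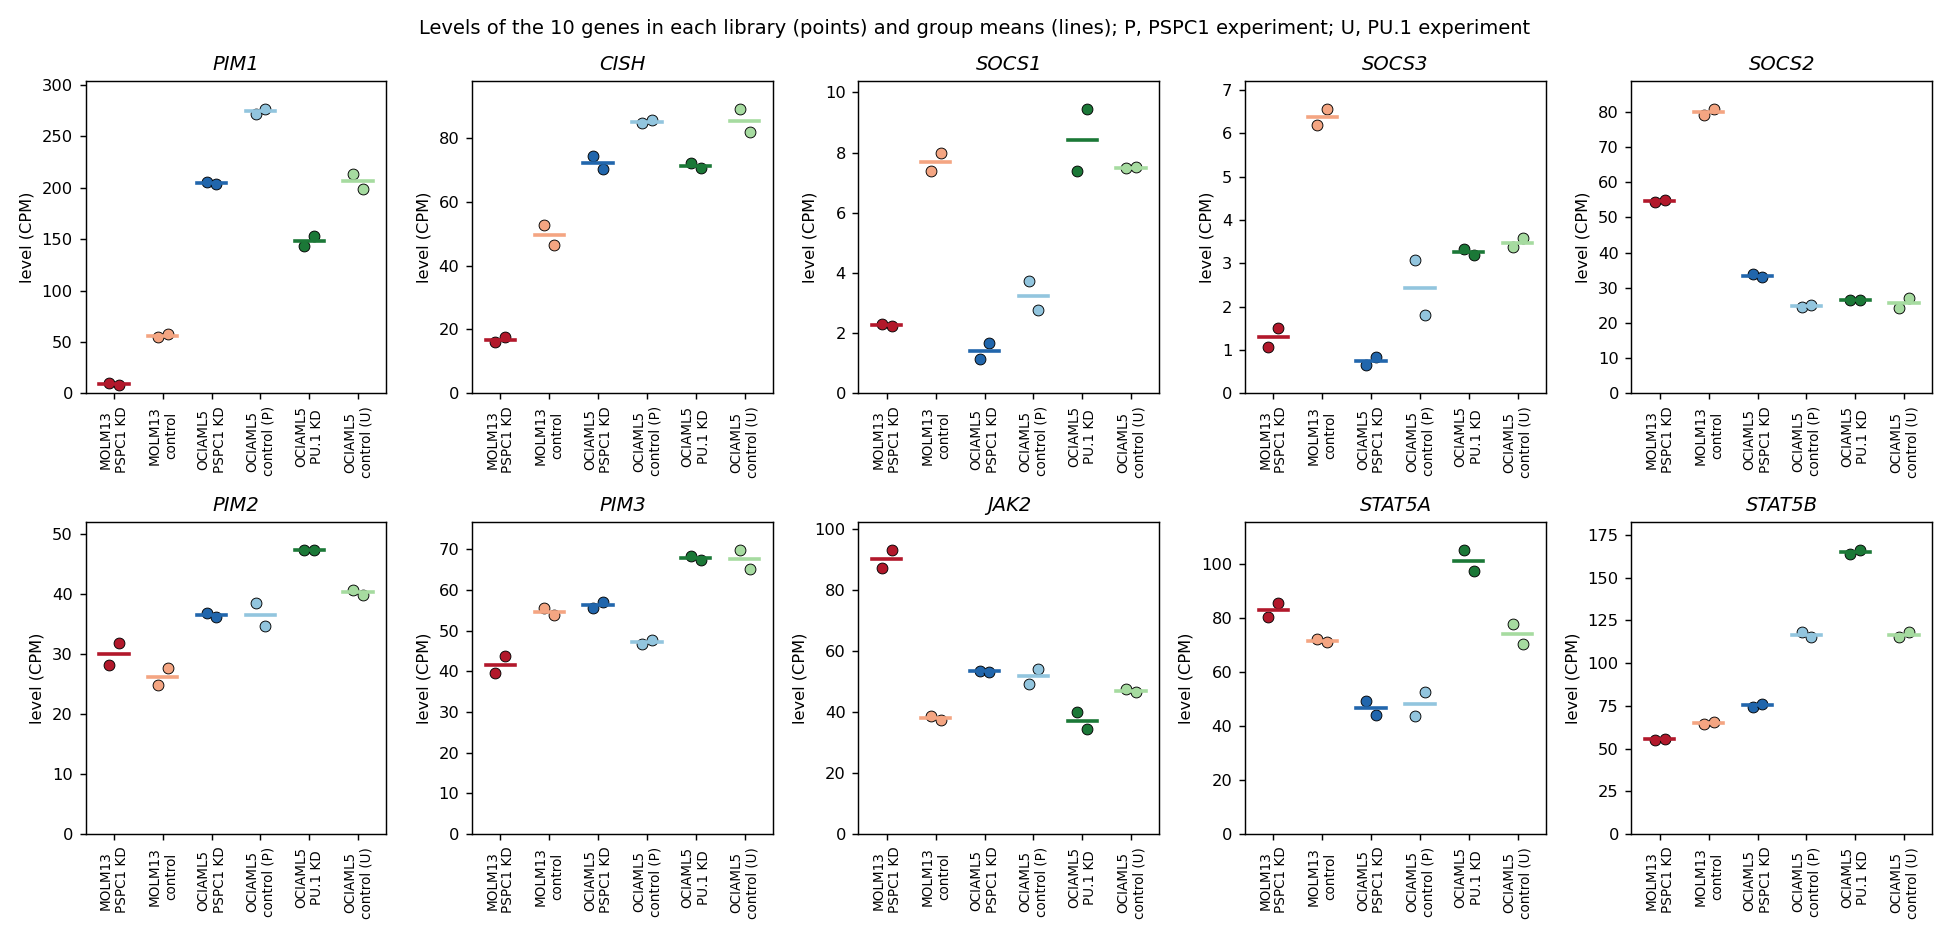
Level in CPM (y axis, linear, one panel per gene) of the 10 genes in each of the 12 libraries (points) with the mean of each group of 2 (line); P and U mark controls of the PSPC1 and PU.1 experiments. PIM1 lies between 7.98 and 10.1 CPM in PSPC1-knockdown MOLM13 and at 199 CPM or more in both OCIAML5 control groups, and CISH lies lowest, at 16.2 and 17.5 CPM, in PSPC1-knockdown MOLM13.

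In OCIAML5, PSPC1 knockdown lowered 5 of the 10 genes, raised 2 and left 3 not called, on a background where 56.0% of 16457 genes were called, 27.5% higher and 28.4% lower. PIM1, CISH, SOCS1, SOCS3 and STAT5B were lower, and the same 5 were lower in MOLM13. The share of all genes with this or any other joint pattern across comparisons was not counted. Whether such shared calls are unusual was therefore not tested. The falls of PIM1 and CISH were small in OCIAML5, and STAT5B was the gene with the smallest p of the 10. The median log2 change was -0.11 over the 10 genes and 0.02 over all genes tested. In these libraries the B lineage list, mostly PAX5, summed to 12.7 to 13.7 CPM after knockdown, against 23.1 to 24.9 CPM in controls (PAX5 log2 change -0.93, adjusted p = 2.7e-06, edgeR), and its part in the results was not tested.

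PIM1 had 205 and 204 CPM in PSPC1-knockdown OCIAML5, against 272 and 276 CPM in the controls of that experiment. The groups did not overlap, and the log2 change was -0.40 (SE 0.051; adjusted p = 1.9e-09, edgeR). CISH had 74.1 and 70.1 CPM in knockdown cells, against 84.5 and 85.5 CPM in controls (log2 change -0.22, SE 0.072; adjusted p = 0.0089, edgeR). That call was lost when libraries were scaled by their totals alone (-0.13, adjusted p = 0.11) and without knockdown replicate 2 (-0.18, adjusted p = 0.091). STAT5B had 74.6 and 75.9 CPM in knockdown cells, against 118 and 115 CPM in controls, a log2 change of -0.61 (SE 0.061; adjusted p = 3.3e-12, edgeR). STAT5A had 49.2 and 44.0 CPM in knockdown cells, against 43.6 and 52.5 CPM in controls; these overlap, and the difference was not called (-0.01, 95% interval -0.17 to 0.15; adjusted p = 0.91, edgeR).

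SOCS1 and SOCS3 were near the bottom of the measurable range in OCIAML5. SOCS1 had 1.13 and 1.67 CPM after PSPC1 knockdown, from 27 and 30 counts, against 3.74 and 2.76 CPM in controls, from 68 and 43 counts (log2 change -1.23, 95% interval -1.88 to -0.58; adjusted p = 0.0011, edgeR). SOCS3 had 0.667 and 0.833 CPM after knockdown, from 16 and 15 counts, against 3.08 and 1.80 CPM in controls, from 56 and 28 counts (log2 change -1.70, 95% interval -2.50 to -0.90; adjusted p = 0.00028, edgeR). For both genes the knockdown libraries lay below the controls. SOCS2 rose instead, with 33.9 and 33.0 CPM in knockdown cells, against 24.5 and 25.1 CPM in controls (log2 change 0.46, SE 0.087; adjusted p = 1.3e-05, edgeR). SOCS2 has 277 exon bases, 4.09% of its total, over exons of SOCS2-AS1 on the opposite strand. As for CISH, whether reads were counted by strand is not stated.

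PIM3 rose in OCIAML5, with 55.7 and 57.1 CPM after PSPC1 knockdown, against 46.8 and 47.8 CPM in controls (log2 change 0.27, SE 0.077; adjusted p = 0.0022, edgeR). PIM2 had 36.9 and 36.1 CPM after knockdown, against 38.5 and 34.6 CPM in controls, and was not called (0.02, 95% interval -0.17 to 0.21; adjusted p = 0.89, edgeR). JAK2, which rose in MOLM13, had 53.6 and 53.2 CPM after knockdown, against 49.3 and 54.2 CPM in controls, and was not called (0.07, 95% interval -0.08 to 0.22; adjusted p = 0.45, edgeR). For both genes the knockdown libraries lay within the range of the controls.

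The difference between the lines was tested directly, as the PSPC1 effect in MOLM13 minus that in OCIAML5, in a model that reuses the libraries of both comparisons. It was called for 6 of the 10 genes, 2 of them positive and 4 negative, against 30.5% of all genes tested, 12.5% positive and 18.0% negative. PIM1 differed most in p, by -2.26 (SE 0.105; adjusted p = 3.2e-23, edgeR), and CISH differed by -1.35 (SE 0.116; adjusted p = 1.6e-13, edgeR). Both fell in both lines and more in MOLM13.

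SOCS2 and PIM3 were called in opposite directions in the 2 lines, lower in MOLM13 and higher in OCIAML5. How many of all genes did so was not counted. The difference in effect was -1.01 for SOCS2 (SE 0.115; adjusted p = 4.9e-10, edgeR) and -0.68 for PIM3 (SE 0.111; adjusted p = 2.3e-06, edgeR). JAK2 differed by 1.16 (SE 0.106; adjusted p = 8.5e-13, edgeR) and STAT5B by 0.37 (SE 0.091; adjusted p = 0.0011, edgeR), and STAT5B fell less in MOLM13. For SOCS1 (-0.54, 95% interval -1.43 to 0.34) and SOCS3 (-0.60, 95% interval -1.71 to 0.52) the intervals are wide, and no difference was called. STAT5A was not called (0.21, adjusted p = 0.15, edgeR) but was without OCIAML5 control replicate 1 (0.34, adjusted p = 0.016). PIM2 was not called (0.17, 95% interval -0.11 to 0.45; adjusted p = 0.41, edgeR).

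**Figure D2:**
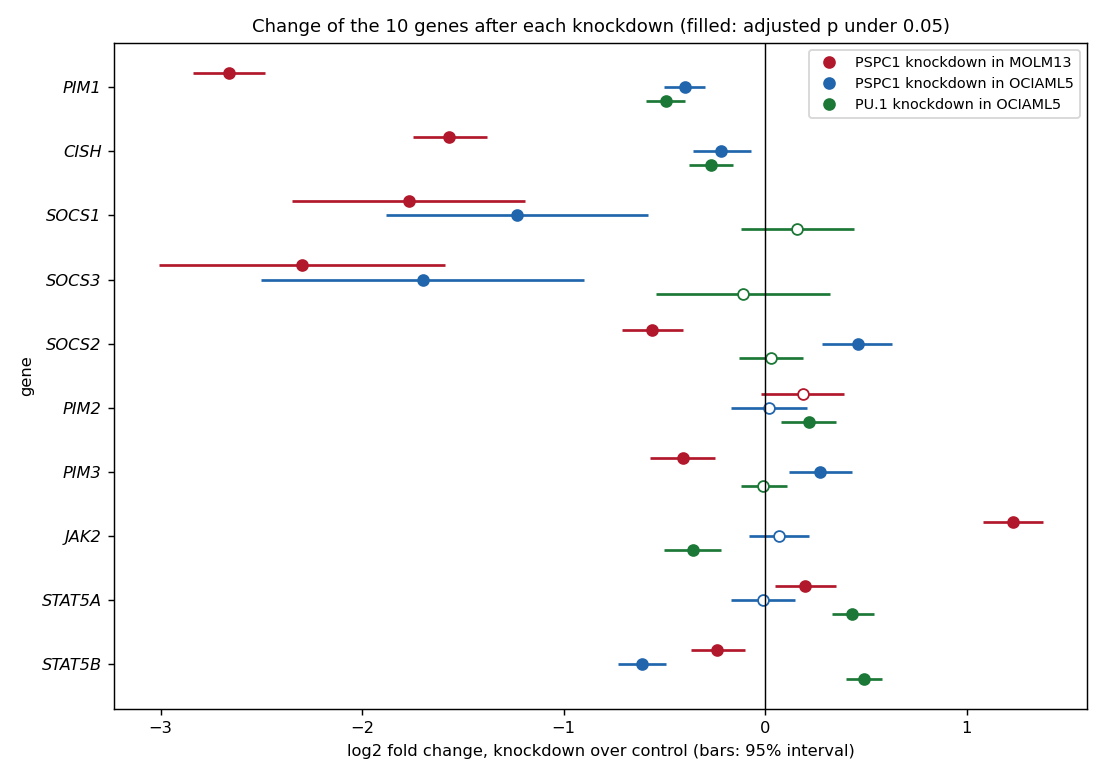
Log2 fold change, knockdown over control (x axis), of the 10 genes (y axis) after each of the 3 knockdowns, with 95% intervals as bars and filled points for an adjusted p under 0.05 (edgeR). PIM1 and CISH are below 0 in all 3, JAK2 is at 1.23 in MOLM13 and at -0.36 after PU.1 knockdown, and STAT5B is below 0 after PSPC1 knockdown in both lines and at 0.49 after PU.1 knockdown.

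PU.1 knockdown in OCIAML5 raised both STAT5 genes and lowered JAK2, PIM1 and CISH. Of the 10 genes 3 were higher, 3 lower and 4 not called, on a background where 60.4% of 16861 genes were called, 29.6% higher and 30.9% lower. The median log2 change was 0.01 over the 10 genes and 0.02 over all genes tested. Scaling by library totals alone shifts the median of all genes in this comparison to 0.171 and the split of calls to 6583 higher and 3995 lower, against 4983 higher and 5206 lower with TMM. The small changes below are relative to the TMM centre.

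STAT5B had 164 and 166 CPM in PU.1-knockdown OCIAML5, against 115 and 118 CPM in the controls of that experiment (log2 change 0.49, SE 0.047; adjusted p = 8.6e-15, edgeR). STAT5A had 105 and 97.2 CPM in knockdown cells, against 77.6 and 70.2 CPM in controls (log2 change 0.43, SE 0.055; adjusted p = 1.8e-10, edgeR). All 4 knockdown values thus lay above all values of the same gene in controls. JAK2 had 40.1 and 34.4 CPM in knockdown cells, against 47.6 and 46.5 CPM in controls (log2 change -0.36, SE 0.070; adjusted p = 9.8e-06, edgeR).

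The target genes PIM1 and CISH fell. PIM1 had 143 and 153 CPM in PU.1-knockdown cells, against 213 and 199 CPM in controls (log2 change -0.49, SE 0.046; adjusted p = 3.2e-15, edgeR). CISH had 72.1 and 70.4 CPM in knockdown cells, against 88.8 and 81.6 CPM in controls (log2 change -0.27, SE 0.055; adjusted p = 1.7e-05, edgeR). Neither gene's groups overlapped. PIM2 rose slightly, with 47.3 and 47.3 CPM in knockdown cells, against 40.7 and 39.9 CPM in controls (log2 change 0.22, SE 0.067; adjusted p = 0.0038, edgeR), and reached 0.05 without knockdown replicate 2.

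The SOCS genes and PIM3 were not called after PU.1 knockdown. SOCS1 had 7.37 and 9.43 CPM in knockdown cells, against 7.47 and 7.53 CPM in controls (0.16, adjusted p = 0.35, edgeR). SOCS3 had 3.33 and 3.19 CPM in knockdown cells, against 3.37 and 3.59 CPM in controls (-0.11, 95% interval -0.54 to 0.32; adjusted p = 0.67, edgeR). SOCS2 had 26.6 and 26.6 CPM in knockdown cells, against 24.2 and 27.2 CPM in controls (0.03, adjusted p = 0.77, edgeR). PIM3, with 68.4 and 67.4 CPM in knockdown cells and 69.8 and 65.2 CPM in controls, lay within the control range (-0.01, adjusted p = 0.94, edgeR). Under scaling by totals alone SOCS1 (0.31, adjusted p = 0.046), SOCS2 (0.18, adjusted p = 0.047) and PIM3 (0.15, adjusted p = 0.023) were called higher. The myeloid marker list, which includes SPI1 itself, summed to 359 to 362 CPM after PU.1 knockdown, against 684 to 730 CPM in controls. The B lineage list summed to 1.15 to 1.24 CPM after knockdown, against 5.60 to 5.84 CPM in controls. The part of these lists in the results was not tested.

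Set against each other within OCIAML5, the PU.1 effect minus the PSPC1 effect was called for 7 of the 10 genes, 4 positive and 3 negative, against 45.6% of 17159 genes tested, 22.8% positive and 22.9% negative. Each effect was taken against its own controls, and the test reuses those libraries. Each target was lowered in its own experiment, so target and experiment cannot be told apart in this test. STAT5B differed by 1.12 (SE 0.074; adjusted p = 2.3e-17, edgeR), having risen after PU.1 knockdown and fallen after PSPC1 knockdown. It was the only one of the 10 called in opposite directions by the 2 knockdowns in this line, and the share of all genes so called was not counted.

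SOCS3 (1.61, SE 0.446; adjusted p = 0.0025, edgeR) and SOCS1 (1.41, SE 0.329; adjusted p = 0.00038, edgeR) also differed; they were lower after PSPC1 knockdown and not called after PU.1 knockdown. Without PSPC1-experiment control replicate 1 the SOCS3 difference was 1.17 (adjusted p = 0.056). STAT5A differed by 0.46 (SE 0.104; adjusted p = 0.00023, edgeR), JAK2 by -0.41 (adjusted p = 0.0015, edgeR) and SOCS2 by -0.41 (adjusted p = 0.0073, edgeR). The JAK2 difference was -0.27 (adjusted p = 0.069) without PU.1-knockdown replicate 2, and the SOCS2 difference was -0.32 (adjusted p = 0.076) without PU.1-experiment control replicate 2. PIM3 differed by -0.26 (adjusted p = 0.019, edgeR), a call lost in 7 alternatives, with adjusted p between 0.065 and 0.12. For PIM1 (-0.08, 95% interval -0.21 to 0.06) and CISH (-0.04, 95% interval -0.22 to 0.13) no difference between the knockdowns was called. PIM2 was not called either (0.21, adjusted p = 0.11, edgeR), but was under scaling by totals alone (0.27, adjusted p = 0.042) and without PSPC1-experiment control replicate 2 (0.29, adjusted p = 0.042).

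With control hairpins, MOLM13 differed from OCIAML5 of the same experiment in all 10 genes, but for SOCS1, STAT5A and PIM3 not in the same way from PU.1-experiment controls of OCIAML5. Against the PSPC1-experiment controls, 5 genes were higher in MOLM13 and 5 lower, on a background of 60.6% called, 30.0% higher and 30.7% lower. PIM1 was 4.89-fold lower in MOLM13 controls, at 55.2 and 57.4 CPM, against 272 and 276 CPM in OCIAML5 controls (log2 difference -2.29, SE 0.057; adjusted p = 5.5e-36, edgeR). STAT5B was lower as well (log2 difference -0.85, SE 0.063; adjusted p = 7.3e-17, edgeR). CISH had 52.7 and 46.3 CPM in MOLM13 controls, against 84.5 and 85.5 CPM in OCIAML5 controls (-0.78, SE 0.074; adjusted p = 4.2e-13, edgeR). PIM2 (-0.49) and JAK2 (-0.45) were lower in MOLM13 as well. For these 5 genes both MOLM13 controls also lay below both PU.1-experiment controls. In OCIAML5 the medium contained GM-CSF, whose receptor carries JAK2; line, medium, serum and GM-CSF cannot be told apart in this design.

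The 3 SOCS genes were higher in MOLM13 than in the OCIAML5 controls of the PSPC1 experiment. SOCS2 had 79.0 and 80.7 CPM in MOLM13 controls, against 24.5 and 25.1 CPM in OCIAML5 controls (1.68, SE 0.082; adjusted p = 7.8e-24, edgeR). SOCS3 was 2.57-fold and SOCS1 2.34-fold higher, and STAT5A 1.49-fold higher. PIM3 was higher by 0.20 (adjusted p = 0.021, edgeR), a call lost under scaling by totals alone, with DESeq2 and without MOLM13 control replicate 1 or OCIAML5 control replicate 1 (adjusted p between 0.068 and 0.11).

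Set beside PU.1-experiment controls of OCIAML5, with no test, SOCS2 and SOCS3 again lay above in both MOLM13 controls. SOCS1, with 7.37 and 8.00 CPM in MOLM13 controls, against 7.47 and 7.53 CPM in PU.1-experiment controls, overlapped. STAT5A overlapped too, with 72.2 and 70.9 CPM in MOLM13 controls, against 77.6 and 70.2 CPM. PIM3 was lower in MOLM13 there, with 55.5 and 53.9 CPM, against 69.8 and 65.2 CPM.

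The 2 sets of OCIAML5 controls, the same line with the same kind of hairpin, show how far these genes moved between experiments. Controls of the PU.1 experiment differed from those of the PSPC1 experiment in 4 of the 10 genes, 3 higher and 1 lower, against 38.9% of genes, 20.0% higher and 18.9% lower. PIM1 was lower, at 213 and 199 CPM in PU.1-experiment controls, against 272 and 276 CPM in PSPC1-experiment controls (-0.41, SE 0.047; adjusted p = 7e-10, edgeR), beside a change of -0.40 after PSPC1 knockdown in this line. SOCS1 was higher, at 7.47 and 7.53 CPM, against 3.74 and 2.76 CPM (1.19, SE 0.210; adjusted p = 7.8e-06, edgeR). STAT5A (0.62, adjusted p = 2.2e-09, edgeR) and PIM3 (0.51, adjusted p = 2.6e-08, edgeR) were higher too. CISH did not separate the experiments, with 88.8 and 81.6 CPM in PU.1-experiment controls, against 84.5 and 85.5 CPM in PSPC1-experiment controls. SOCS3 was not called (0.49, adjusted p = 0.17, edgeR) but was without PSPC1-experiment control replicate 1 (0.94, adjusted p = 0.04). For this reason each knockdown is read only against the controls of its own experiment.

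**Figure D3:**
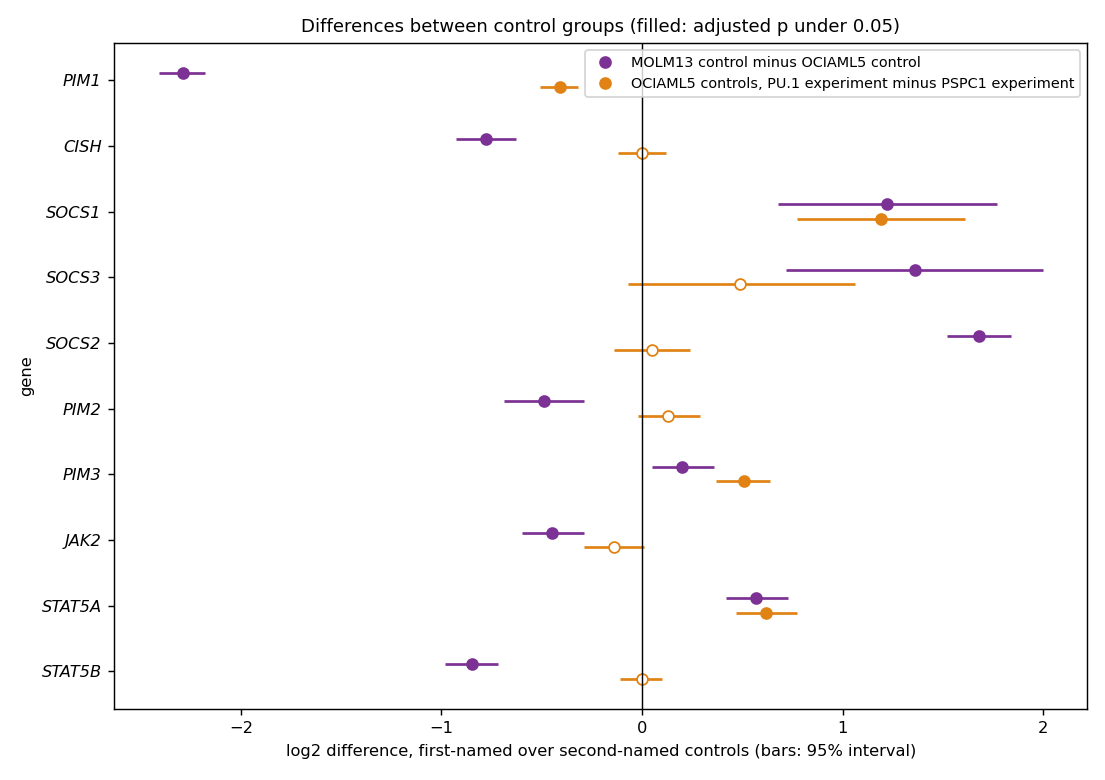
Log2 difference between control groups (x axis) for the 10 genes (y axis), MOLM13 minus OCIAML5 and, within OCIAML5, PU.1 experiment minus PSPC1 experiment, with 95% intervals as bars and filled points for an adjusted p under 0.05 (edgeR). PIM1 lies at -2.29 between the lines and at -0.41 between the experiments, and SOCS1 lies above 1 in both.

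Levels of different genes were compared per kilobase of exon (CPM per kb). In both MOLM13 groups PIM3 ranked first of the 10, with a mean of 17.0 after PSPC1 knockdown and 22.2 in controls. In every OCIAML5 group PIM1 ranked first, with 68.7 after PSPC1 knockdown, 49.7 after PU.1 knockdown, 92.1 in PSPC1-experiment controls and 69.2 in PU.1-experiment controls. SOCS3 was last in all 6 groups, between 0.274 and 2.33. In PSPC1-knockdown MOLM13 PIM1 ranked eighth, next to CISH, whose libraries overlapped with it (2.68 and 3.39 CPM per kb for PIM1, 3.17 and 3.42 for CISH).

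PIM1 therefore made up a changing share of the PIM family. It gave 11.4% and 8.35% of the summed PIM level per kb in PSPC1-knockdown MOLM13, against 36.9% and 37.7% in controls. In OCIAML5 it gave 65.7% and 65.4% after PSPC1 knockdown, against 73.5% and 74.4% in controls, and 51.7% and 53.6% after PU.1 knockdown, against 62.4% and 62.0% in controls. The family sum was 29.7 and 32.1 CPM per kb in PSPC1-knockdown MOLM13, against 50.1 and 51.2 in controls. In OCIAML5 it was 105 and 105 CPM per kb after PSPC1 knockdown, against 124 and 125 in controls, and 92.9 and 95.9 after PU.1 knockdown, against 115 and 108 in controls. The PIM sum was thus lower in all 3 knockdowns, whereas the STAT5 sum was lower in 1 of them. The STAT5 sum was 22.5 and 23.4 CPM per kb in PSPC1-knockdown MOLM13, against 22.5 and 22.5 in controls. In OCIAML5 it was 20.1 and 19.5 after PSPC1 knockdown, against 25.9 and 26.9 in controls, and 43.6 and 42.6 after PU.1 knockdown, against 31.3 and 30.5 in controls. STAT5A made up 42.4% and 39.3% of the STAT5 sum in PSPC1-knockdown OCIAML5, against 29.3% and 33.9% in controls. Shares are descriptions with no test.

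Over all 12 libraries, CISH and PIM1 were each among the 3 genes most like the other. Pearson's r of log2(CPM + 0.5) between them was 0.984, among 17649 genes. For CISH the others were USP24 (0.985) and AP2B1 (0.982), and for PIM1 they were USP24 (0.989) and IGF2BP1 (0.979). These values are a description over 12 libraries of 6 groups, in which both genes are lowest in PSPC1-knockdown MOLM13, and no test applies. USP24, a deubiquitinase gene, averaged 135 CPM in PSPC1-knockdown MOLM13, 192 in MOLM13 controls, 231 in PSPC1-knockdown OCIAML5 and 261 in its controls, and 222 in PU.1-knockdown OCIAML5 and 246 in its controls.

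The rest of the pathway was read from 4 further lists, each set beside the shares called over all genes: 57.0% after PSPC1 knockdown in MOLM13 (27.6% higher, 29.5% lower), 56.0% in OCIAML5 (27.5% higher, 28.4% lower) and 60.4% after PU.1 knockdown (29.6% higher, 30.9% lower). Among 12 other STAT5 target genes, 2 were higher and 9 lower after PSPC1 knockdown in MOLM13 (median log2 change -1.50), 3 higher and 6 lower in OCIAML5 (median -0.96), and 4 higher and 5 lower after PU.1 knockdown (median -0.08). Cyclin gene CCND2 averaged 24.4 ± 0.61 CPM in PSPC1-knockdown MOLM13 and 175 ± 11 CPM in controls (SD, n = 2 each), a log2 change of -2.86 (adjusted p = 3.9e-37, edgeR). MYC averaged 158 ± 4.4 CPM in the knockdown and 611 ± 4.8 CPM in controls (-1.97, adjusted p = 3.8e-37, edgeR), and the survival gene BCL2 changed by -1.51 (adjusted p = 2.4e-29, edgeR). These had the smallest adjusted p in the list, and the same 3 genes had it in PSPC1-knockdown OCIAML5, with CCND2 at -1.79, MYC at -1.60 and BCL2 at -1.59. After PU.1 knockdown CCND2 (0.06) and MYC (-0.04) were not called, and the smallest adjusted p belonged to CCND3 (0.66), CCND1 (-1.86) and the cytokine gene OSM (2.43). Not all of these targets fell after PSPC1 knockdown. MCL1 rose by 0.62 in MOLM13 (adjusted p = 5.9e-18, edgeR) and by 0.90 in OCIAML5 (adjusted p = 3.7e-24, edgeR). CCND3 changed by -1.16 in MOLM13 and by 0.26 in OCIAML5 after PSPC1 knockdown. Falls larger than that of CCND2 occurred in scarcer genes. OSM changed by -3.05 in PSPC1-knockdown MOLM13, and the receptor gene IL2RA had 0.292 and 0.333 CPM in PSPC1-knockdown OCIAML5, against 8.58 and 9.56 CPM in controls. IL2RA was at 0 counts in both PU.1-knockdown libraries, against 19 and 24 counts (0.581 and 0.615 CPM) in the controls of that experiment. Between the 2 sets of OCIAML5 controls IL2RA differed by -3.91, PU.1 experiment minus PSPC1 experiment (adjusted p = 8.8e-13, edgeR).

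BCL6, whose promoter window is printed above, was higher after PSPC1 knockdown in MOLM13, where CISH was lower, and lower after both knockdowns in OCIAML5, as CISH was. It averaged 8.70 ± 0.86 CPM in PSPC1-knockdown MOLM13 and 5.29 ± 0.23 CPM in controls (log2 change 0.71, adjusted p = 0.00016, edgeR). In OCIAML5 it averaged 19.8 ± 1.1 CPM after PSPC1 knockdown and 57.6 ± 3.6 CPM in controls (-1.53, adjusted p = 2.5e-17, edgeR; SD, n = 2 each). After PU.1 knockdown its log2 change was -0.98 (adjusted p = 2.6e-11, edgeR). BCL6 averaged 16.6 ± 0.12 CPM in the PU.1-experiment controls, below the PSPC1-knockdown OCIAML5 cells. The 2 sets of OCIAML5 controls differed by -1.80, PU.1 experiment minus PSPC1 experiment (adjusted p = 3.5e-20, edgeR). The PSPC1 effect on BCL6 differed between the lines by 2.24 (adjusted p = 1.8e-13, edgeR), with a sign opposite to that of CISH and PIM1.

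Of 12 cytokine receptor genes tested, 1 was higher and 5 lower after PSPC1 knockdown in MOLM13 (median -0.18), 2 higher and 8 lower in OCIAML5 (median -1.30), and 4 higher and 5 lower after PU.1 knockdown (median 0.10). The 6 of 12 called in MOLM13 are a smaller share than the 57.0% over all genes, and the 10 of 12 and 9 of 12 in OCIAML5 stand beside 56.0% and 60.4%. FLT3, the receptor kinase known to activate STAT5 when mutated, averaged 171 ± 3.5 CPM in PSPC1-knockdown MOLM13 and 326 ± 4.4 CPM in controls (SD, n = 2 each; log2 change -0.94, adjusted p = 4.3e-23, edgeR). In OCIAML5 it changed by -3.22 after PSPC1 knockdown (adjusted p = 4.9e-41, edgeR) and by -1.94 after PU.1 knockdown (adjusted p = 6.5e-35, edgeR). CSF2RA, the GM-CSF-binding chain, averaged 7.74 ± 1.6 CPM in PSPC1-knockdown OCIAML5 and 24.1 ± 0.31 CPM in controls (-1.60, adjusted p = 1.2e-15, edgeR). CSF2RB, the chain that carries JAK2, was higher in the same cells (0.31, adjusted p = 0.00054, edgeR). IL7R was lower after all 3 knockdowns, with log2 changes of -1.48 in MOLM13, -4.62 in PSPC1-knockdown OCIAML5 and -2.42 after PU.1 knockdown. It was scarce in OCIAML5. After PSPC1 knockdown it had 0.292 and 0.278 CPM, from 7 and 5 counts, against 6.22 and 8.47 CPM in controls. After PU.1 knockdown it had 1.03 and 0.763 CPM, from 29 and 28 counts, against 5.23 and 4.18 CPM in controls. FLT3 (-1.88) and CSF2RA (-1.35) also differed between the 2 sets of OCIAML5 controls, PU.1 experiment minus PSPC1 experiment.

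The other JAK and STAT genes were mostly higher. After PSPC1 knockdown 5 of 7 tested rose in MOLM13 with none lower, and 7 of 7 rose in OCIAML5; after PU.1 knockdown 6 of 8 rose and 1 fell. Over all genes the shares higher were 27.6%, 27.5% and 29.6% in the same order. JAK3 rose by 2.08 after PSPC1 knockdown and 1.44 after PU.1 knockdown in OCIAML5. STAT2 rose by 1.45 (SE 0.063; adjusted p = 9.7e-26, edgeR) and STAT6 by 0.50 (SE 0.045; adjusted p = 7.5e-14, edgeR) in PSPC1-knockdown MOLM13. STAT3 rose by 0.68 after PSPC1 knockdown and by 0.92 after PU.1 knockdown in OCIAML5.

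Among 15 other negative regulators, 7 were higher and 4 lower after PSPC1 knockdown in MOLM13 (median 0.15), 10 higher and 4 lower in OCIAML5 (median 0.32), and 3 higher and 9 lower after PU.1 knockdown (median -0.22). Over all genes 57.0%, 56.0% and 60.4% were called in these comparisons, about evenly higher and lower. PTPN6, which encodes the phosphatase SHP-1 that switches off JAK kinases, averaged 50.8 ± 0.79 CPM in PU.1-knockdown OCIAML5 and 291 ± 1.9 CPM in controls (SD, n = 2 each; log2 change -2.54, adjusted p = 5.8e-52, edgeR). SH2B3, the adaptor LNK that restrains JAK2, was lower in all 3 knockdowns, with log2 changes of -0.77 in MOLM13, -1.17 in PSPC1-knockdown OCIAML5 and -0.66 after PU.1 knockdown. PTPRC, which encodes the phosphatase CD45, rose by 0.72 in MOLM13 and 0.78 in OCIAML5 after PSPC1 knockdown. SH2B3 (-0.72), PTPN6 (-0.55) and PTPRC (-0.42) also differed between the 2 sets of OCIAML5 controls, PU.1 experiment minus PSPC1 experiment.

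**Figure D4:**
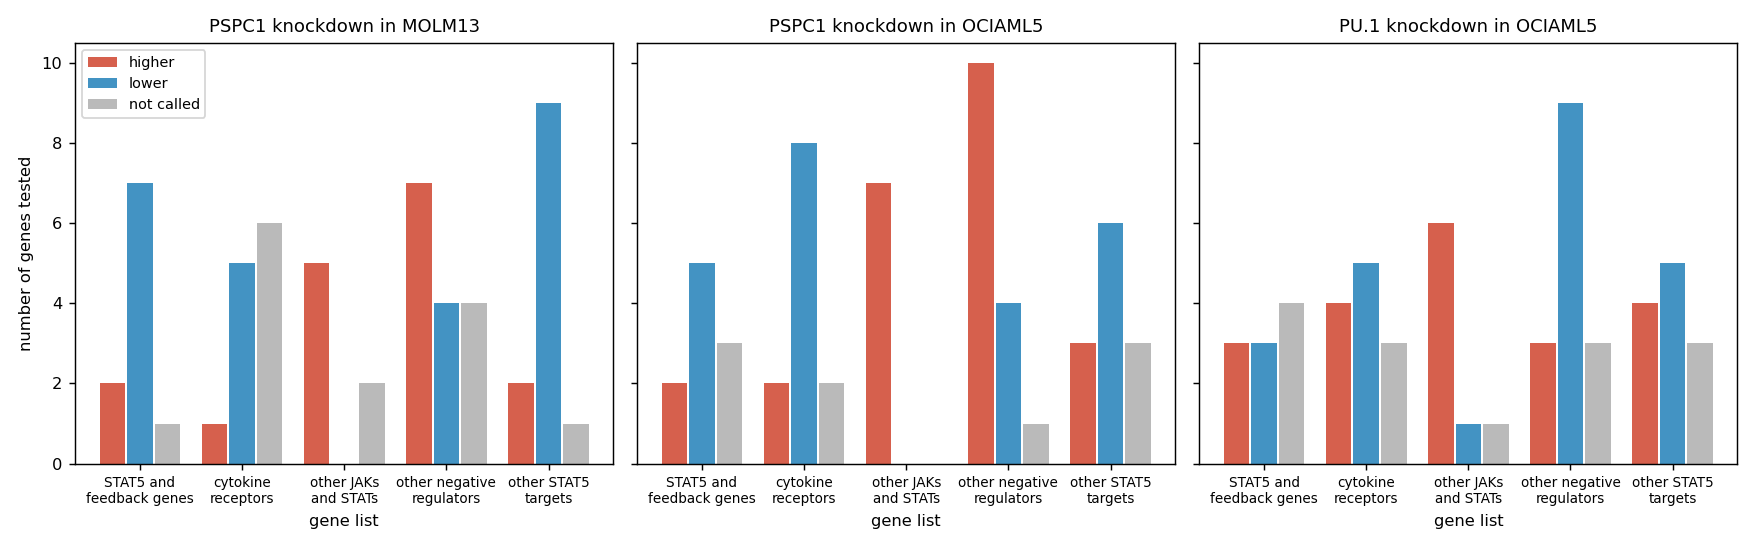
Number of genes tested (y axis) that were higher, lower or not called (bars, adjusted p under 0.05, edgeR) in the 10 genes and 4 further lists of the pathway (x axis), one panel per knockdown. In MOLM13 7 of the 10 genes and 9 of 12 other STAT5 targets are lower after PSPC1 knockdown, while 5 of 7 other JAK and STAT genes are higher.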

How the data were processed

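Per the labels, total RNA was taken with TRIzol and libraries were made with a stranded mRNA kit; the submitters' processing notes list HTSeq 2.0.2, STAR 2.7.10a, DESeq2 1.36.0 and Trim Galore 0.6.7 with the build GRCh38, and their roles, the annotation and the strand setting are not given in the sources used. The authors deposited 1 table of raw counts per gene for each experiment.

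Counts were fitted with edgeR 4.0.16 in R 4.3.3 (filterByExpr, TMM, quasi-likelihood test, Benjamini-Hochberg over all genes that passed, threshold 0.05): 8 libraries of the PSPC1 experiment (16457 genes, 4 residual degrees of freedom), 4 of the PU.1 experiment (16861 genes, 2 degrees of freedom), and the 8 OCIAML5 libraries joined by gene (17159 genes, 4 degrees of freedom). Printed CPM use factors over all 12 libraries, so ratios of CPM can differ slightly from fitted fold changes. Standard errors come from the fitted change and its F statistic. The scripts were tested on simulated data.

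Replicates of a group differed by more than sampling noise (chi-square per degree of freedom 2.61 to 4.96), so none was treated as the same library sequenced again. This spread cannot show whether the 2 libraries are separate cultures. Gene positions and exon lengths are GENCODE 29 (GRCh38), and promoter windows are RefSeq GRCh38.p14. Alternatives were RLE and library-total scaling, no filter, a filter of 1 CPM in 2 libraries, DESeq2 1.42.0, a replicate block, only the 4 libraries compared, and leaving out each replicate.

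The 10 genes, the pathway and marker lists and the tests were chosen with earlier results of these data known. Genes were named by rule: the 10 genes, up to 3 genes per pathway list and comparison with the smallest adjusted p, and the 3 genes most correlated with CISH and with PIM1. Not all genes given by the pathway rule are described, and CBL, PTPN1 and JAK1 are among those left out. A gene that this rule names is not reported here. CSF2RB after PSPC1 knockdown, BCL6 in single knockdowns, MYC and CCND2 after PU.1 knockdown, IL2RA, OSM in MOLM13, PAX5 and ITGA2B were named after their values were seen. The same holds for MCL1 and for CCND3 after PSPC1 knockdown. Of the marker lists, B lineage genes summed to between 1.15 and 24.9 CPM, megakaryocyte genes to between 3.39 and 16 CPM, and T and NK genes to between 1.47 and 24.2 CPM over the 12 libraries.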

Additional observations from a re-analysis of the deposited data

Results flagged for a closer look

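For 6 of the 10 genes the effect of PSPC1 knockdown differed between MOLM13 and OCIAML5 in a test of the difference itself (edgeR's quasi-likelihood interaction term, adjusted p under 0.05; log2 effect in MOLM13 minus that in OCIAML5). Over all 16457 genes tested, 30.5% were called in this test, 12.5% positive and 18.0% negative. PIM1 differed by -2.26 and CISH by -1.35, both lower in both lines. SOCS2 differed by -1.01 and PIM3 by -0.68, both lower in MOLM13 and higher in OCIAML5. JAK2 differed by 1.16, having risen in MOLM13 and not been called in OCIAML5, and STAT5B by 0.37, lower in both lines. PSPC1 itself was lowered to a similar extent, with a difference between the lines of 0.10 that was not called (95% interval -0.11 to 0.32; adjusted p = 0.52). Line, medium, serum and GM-CSF cannot be told apart.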

How the results depend on the processing

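The number of the 10 genes called stayed within 1.5 times its reported value in every comparison under each alternative run. That limit is loose, since no more than 10 genes can be called, so several comparisons could not have passed it upwards. Scaling by library totals alone added calls for SOCS1, SOCS2 and PIM3 after PU.1 knockdown. Leaving out a replicate leaves 1 library in its group, so counts of calls from those runs are not listed. A group left with 1 library was assumed to vary like the others. Of 810 values recomputed for the 10 genes, 759 kept their direction and side of the threshold, 21 lost a call, 7 gained one and 23 turned their sign. Of 972 values for other named genes, 2 lost a call, both for TYK2 between the OCIAML5 controls (adjusted p = 0.072 without PSPC1-experiment control replicate 2, 0.096 without PU.1-experiment control replicate 1).

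All 23 values that turned their sign belong to differences not called in the report, and the cause was not tested. After PSPC1 knockdown in OCIAML5, STAT5A was 0.07 under library totals alone and ranged over -0.15 to 0.11 when a replicate was left out, JAK2 over -0.00 to 0.13 and PIM2 over -0.07 to 0.10. After PU.1 knockdown, PIM3 was 0.15 under library totals, 0.03 with the 1 CPM filter and -0.07 to 0.02 when a replicate was left out, SOCS1 ranged over -0.05 to 0.30 and SOCS2 over -0.07 to 0.10 when a replicate was left out, and SOCS3 was 0.04 under library totals. For CISH the PU.1 effect minus the PSPC1 effect was 0.01 under library totals and -0.10 to 0.03 when a replicate was left out. Between the OCIAML5 controls, STAT5B was 0.07 with no filter and -0.02 to 0.01 when a replicate was left out, CISH was 0.00 under library totals, 0.07 with no filter and -0.06 to 0.06 when a replicate was left out, and SOCS2 ranged over -0.03 to 0.13 when one was left out. With no filter, 63.3% of all calls between the OCIAML5 controls were higher, against 51.4% with it.

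The libraries share only a replicate number: deviations of same-numbered knockdown and control libraries correlated at 0.019 in MOLM13, -0.0052 in PSPC1-experiment OCIAML5 and 0.0085 in the PU.1 experiment. With the replicate block, 4450 genes were higher and 4790 lower after PSPC1 knockdown in MOLM13, 4438 and 4622 after PSPC1 knockdown in OCIAML5, and 4844 and 5097 after PU.1 knockdown, and the calls of the 10 genes were those without the block in all 3. SOCS1 and SOCS3 had only 15 to 346 counts, and how far depth or replicate scatter widens their intervals was not tested.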
